A study of Homo sapiens with 2 samples.

Results

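Tight runs of N6-methyladenosine (m6A) sites were described in mRNA of the established human cell line HEK293T, which derives from embryonic kidney. A run was 4 or more sites of 1 gene in which each next site lay at most 30 nt further along the genome, among sites listed in both libraries at the same position and strand. This rule used position, gene name and listing in both libraries, and through the listing a level of at least 10%, but no other property of the level. It found 396 runs with 1719 sites in 372 genes, which was 3.06% of the 56106 shared sites in named genes and 3.91% of the 9521 genes that held one. The other shared sites formed 37399 lone sites, 6457 pairs and 1358 triples, so runs were 396 of 45610 groups.

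The study applied GLORI to untreated wild-type cells, with 1 group of 2 libraries and no second condition. In GLORI, glyoxal and nitrite turn unmethylated adenosine into inosine, which is read as G, while m6A stays A, so the share of A among A and G reads at a position is its methylation level. Each library was made from 100 to 200 ng of oligo(dT)-selected mRNA by an adapted eCLIP procedure. The list of replicate 1 holds 72449 sites and 5221660 A or G reads, and that of replicate 2 holds 81554 sites and 6306522 reads. Nothing in the labels ties the replicates to different cultures, so differences between them may be technical. P-values of Fisher's exact test between them set a difference against read sampling only. They do not measure how far libraries or cultures spread. Fisher's exact test called no shared site different between the libraries at an adjusted p under 0.05. This test can miss large differences: a site of TBC1D10B with 18.6% and 42.3% in replicates 1 and 2 was not called. Both libraries were counted as 1 sample, levels are means of both, and errors are counting errors only. Requiring a site in both lists removes sites that passed in 1 library alone, so part of the closeness of the libraries is set by the choice of sites. Only sites with at least 15 reads, 5 A reads and a level of 10% are listed, so an unlisted adenosine inside a run may be unmethylated or thinly covered.

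As background, m6A is written cotranscriptionally by a nuclear complex built around METTL3, METTL14 and WTAP, removed by the demethylases FTO and ALKBH5, and bound by reader proteins such as those with a YTH domain. It is known to favour a short motif centred on the adenosine, long exons and the region around stop codons. A transcript with several such motifs close together can carry several marks within the length of 1 read.

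Most runs were short. Of the 396 runs, 302 (76.3%) had 4 sites, 67 had 5, 20 had 6, 4 had 7, and 1 each had 8, 9 and 11. From first to last site they covered a median of 54 nt (quartiles 42.75 and 64.25), from 19 nt in CCNT1, the cyclin of the elongation factor P-TEFb, to 301 nt in SON. They lay on 23 chromosomes, 249 on the plus strand and 147 on the minus strand, and 63.1% of run sites were on the plus strand against 57.4% of other shared sites. The limit of 30 nt cut through a continuous range of distances. Exactly 30 nt separated 60 neighbouring pairs in 47 runs, and 111 triples had a further site 31 to 35 nt away.

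**Figure D1:**
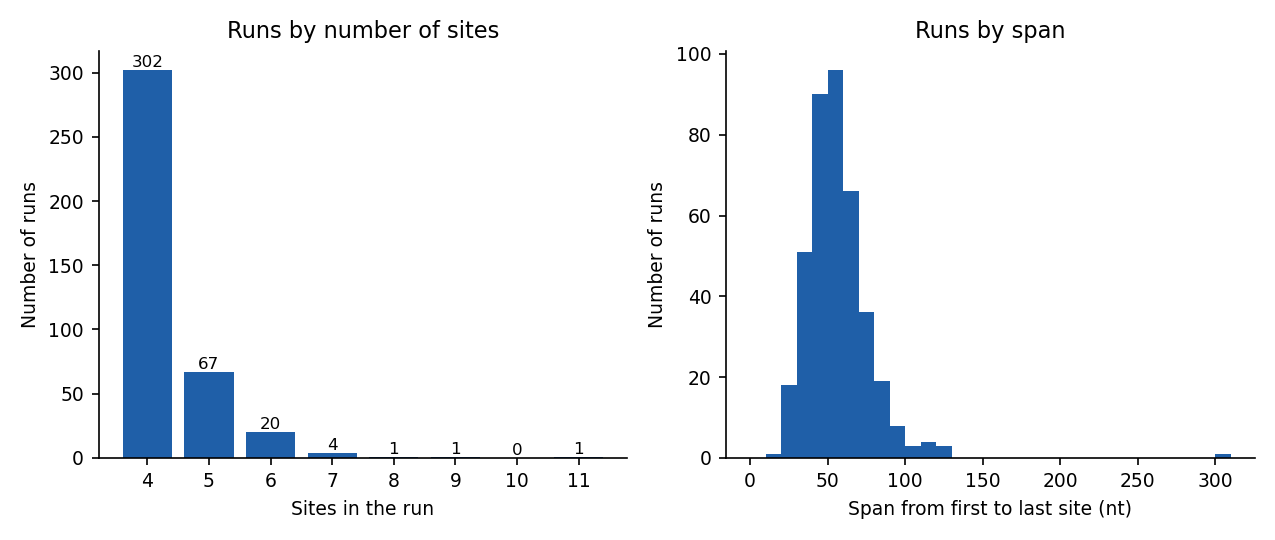
The left plot gives the number of runs (vertical axis) by the number of sites in the run, and the right plot the number of runs by span in nt from first to last site. The 302 runs of 4 sites make the tallest bar, and the single run of 301 nt stands apart at the right.

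The longest run was in SON, which encodes a large protein of nuclear speckles that acts in splicing and is known to contain tandem repeats. Its 11 sites lay at chromosome 21, 33551426 to 33551726 (plus strand, GRCh38), and every step was 30 nt. From the 5′ end the levels in replicate 1 and replicate 2 were 98.4% and 96.1%, 100% and 97.8%, 97.4% and 97.5%, and 94.3% and 93.5% at the first 4 sites. They were 77.1% and 74.0%, 68.3% and 73.8%, and 87.7% and 86.9% at the next 3. The last 4 sites had 60.6% and 54.0%, 54.1% and 59.4%, 65.0% and 41.7%, and 57.5% and 64.1%. The upstream sites were thus nearly fully methylated and the downstream ones less so, in both libraries, with the tenth site the least certain at 20 and 24 reads. The mean of the run was 77.2% ± 0.90 (counting SE), against 42.1% at the other 72 shared sites of SON, at a similar median coverage in replicate 1 (153 and 158.5 reads). Of its 10 neighbouring pairs, 4 differed beyond read sampling by the pair test described below. The same spacing went on beyond the run. The position 30 nt further was listed only in replicate 1 at 14.9% (30 of 201 reads). The next 3 positions at that spacing were listed in both, at 87.6% and 88.2%, 13.7% and 10.7%, and 96.4% and 95.4%. With replicate 1 alone the run had 15 sites. No source used here states how reads were assigned within such repeats.

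Runs of 7 and 8 sites had irregular steps, and most had alternating levels. FOXK2, a forkhead transcription factor, had 8 sites at chromosome 17, 82602200 to 82602296 (plus strand) with a mean of 57.7% ± 1.05. Its second site had 23.9% and 13.4%, between neighbours of 74.0% and 81.0% (8 nt upstream) and of 91.9% and 87.5% (4 nt downstream). THAP11, a zinc finger transcription factor known from pluripotent cells, had 7 sites at chromosome 16, 67843500 to 67843622 (plus strand). Of these, 4 were near full methylation, with 88.0% and 87.7%, 97.1% and 95.5%, 97.4% and 98.8%, and 95.4% and 97.4%. The other 3 were low, with 13.0% and 17.8%, 21.2% and 25.9%, and 27.0% and 33.8%, and no level lay between these classes. CIAO1, a component of cytosolic iron-sulfur cluster assembly, had 7 sites from 13.7% to 86.1%, and C5orf15 had 7 from 16.9% to 91.4%. The antisense long noncoding RNA SLC9A3-AS1 differed in form: 6 of its 7 sites lay between 30.3% and 40.3%, and the last had 90.6% and 74.1%. Only the last pair of SLC9A3-AS1 differed, 1 of 6.

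**Figure D2:**
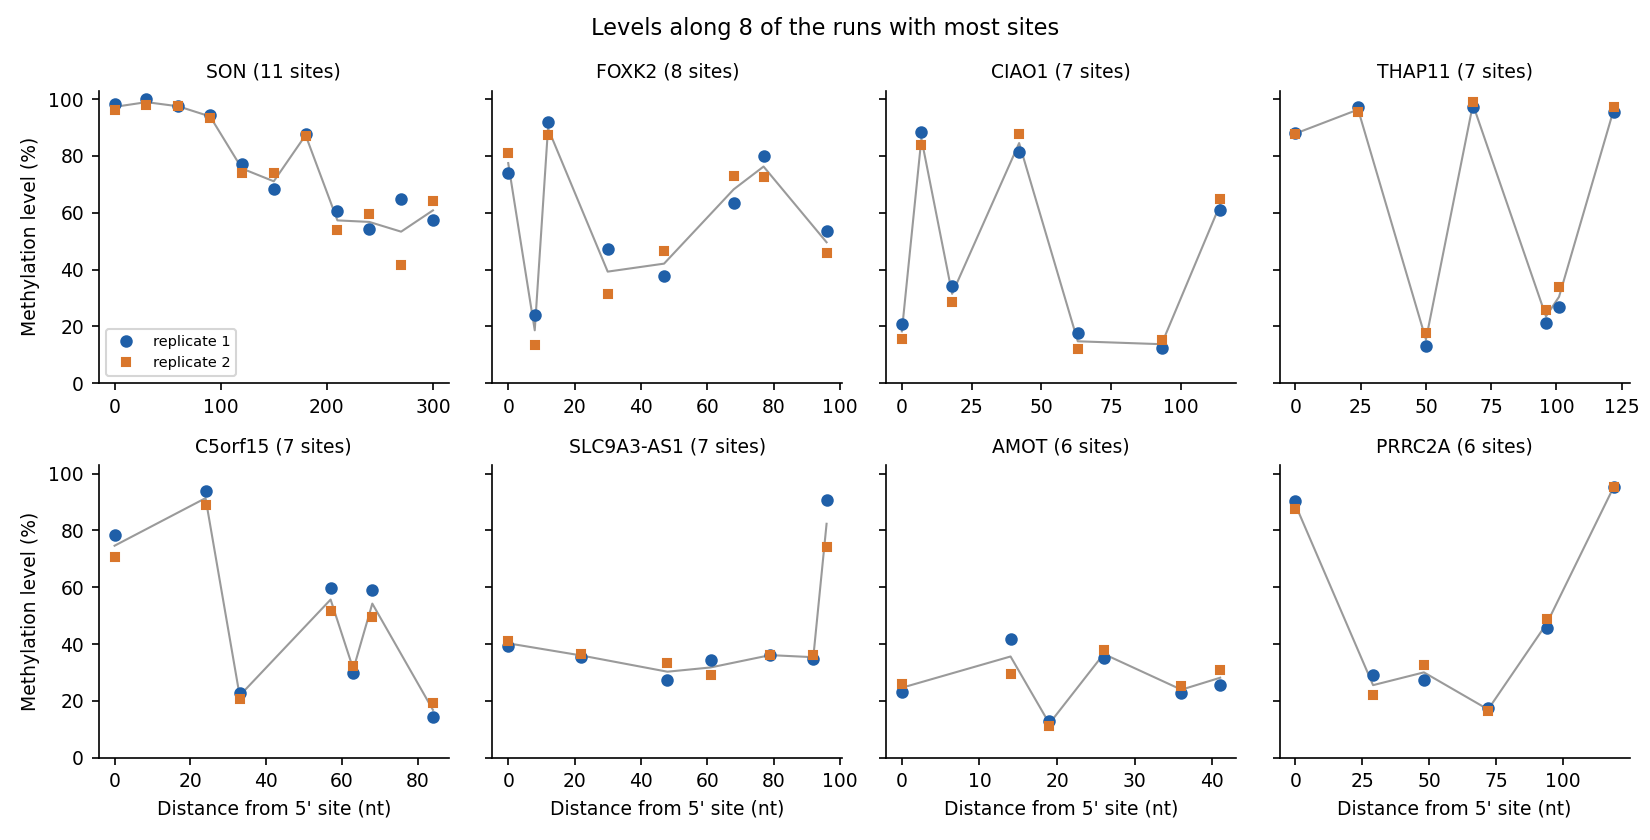
Each panel shows 1 of 8 runs among those with most sites, with the distance from the 5′-most site in nt on the horizontal axis and the methylation level in percent on the vertical axis. Circles are replicate 1, squares replicate 2, and the grey line joins their means; SON steps evenly every 30 nt, while THAP11 jumps between levels near 15.4% and 98.1%.

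Among the runs of 6 sites with most reads, AMOT, an angiomotin of the Hippo pathway, was low throughout. Its 6 sites within 42 nt ranged from 12.1% to 36.5% with a mean of 26.8% ± 0.78, at a median coverage of 248 reads, and 4 of its 5 neighbouring pairs differed. PRRC2A, which encodes an RNA-binding protein, had high sites at both ends, 89.0% and 95.4%, and 4 sites from 17.0% to 47.4% between them. KCTD12, an auxiliary subunit of GABA-B receptors, ranged from 21.3% to 83.2%, and all 5 of its neighbouring pairs differed.

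Evenly spaced sites were rare. In 5 runs all steps were equal. Besides SON these were TRO (5 sites, 30 nt), MAP3K21 (4 sites, 21 nt), JAG2 (4 sites, 19 nt) and ZFX (4 sites, 9 nt), which were singled out after their values were seen. TRO encodes the adhesion protein trophinin, known for tandem decapeptide repeats. Its sites at chromosome X, 54930480 to 54930600 (plus strand) had mean levels of 33.8%, 88.0%, 90.7%, 89.0% and 91.7%, so that 1 low site preceded 4 high ones, at 18 to 35 reads a site. Only 1 of its 4 pairs differed, the first. MAP3K21, a mixed-lineage kinase, had 45.4% to 91.6%, JAG2, a Notch ligand, 36.2% to 87.1%, and ZFX, an X-linked zinc finger factor, 37.8% to 85.4%.

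The long noncoding RNA LINC02693 held 2 runs that repeated a step of 25 nt, also noticed after the values were seen. Both lay on the minus strand of chromosome 17, 32 nt apart, and their 10 sites spanned 210 nt. In the upstream run (21535161 to 21535060) a first site of 16.3% and 21.6% in replicates 1 and 2 was followed 26 nt on by 94.4% and 98.9%. A further 3 sites followed at 25 nt each, with 79.5% and 84.9%, 93.2% and 94.2%, and 90.1% and 95.2%. In the downstream run (21535028 to 21534952) a first site of 20.3% and 36.8% lay directly beside one of 95% and 100%. Then came 100% and 97.9%, 85.0% and 76.8%, and 97.1% and 98.5%, again at 25 nt each. In both runs a single low site thus stood upstream of 4 sites above 80% in the mean of both libraries, at 44 to 111 reads a site. The adjacent pair of the downstream run was the only step of 1 nt in any run.

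Over all runs the 1323 steps had a median of 16 nt (quartiles 9 and 24). Steps under 4 nt were nearly missing: 1 of 1 nt, 3 of 2 nt and 2 of 3 nt, against 41 of 4 nt and 69 of 6 nt. Among the 1317 steps of 4 to 30 nt, 532 were multiples of 3 (40.4%, 95% Wilson interval 37.8 to 43.1), and 421 and 364 left a remainder of 1 and 2. The share was 39.4% (38.4 to 40.4) in pairs and triples, and the intervals overlapped. In protein-coding genes 510 of 1246 steps were multiples of 3 (40.9%, 38.2 to 43.7), and in other genes 22 of 71 (31%, 21.4 to 42.5), with overlapping intervals. Within protein-coding genes the share was 43.8% (40.1 to 47.5) before the last 10% of the gene. It was lower in that last part, at 37.4% (33.5 to 41.5). In 32 runs every step was a multiple of 3, and in 82 runs none was. All of the 32 were in protein-coding genes, which held 374 of the 396 runs, so this is near the background. These intervals treat steps as independent, which neighbouring steps of 1 run are not. Overlap of intervals does not show that shares are equal, and no difference between these shares was tested. The place of the sites in codons, exons and UTRs was not analysed here.

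**Figure D3:**
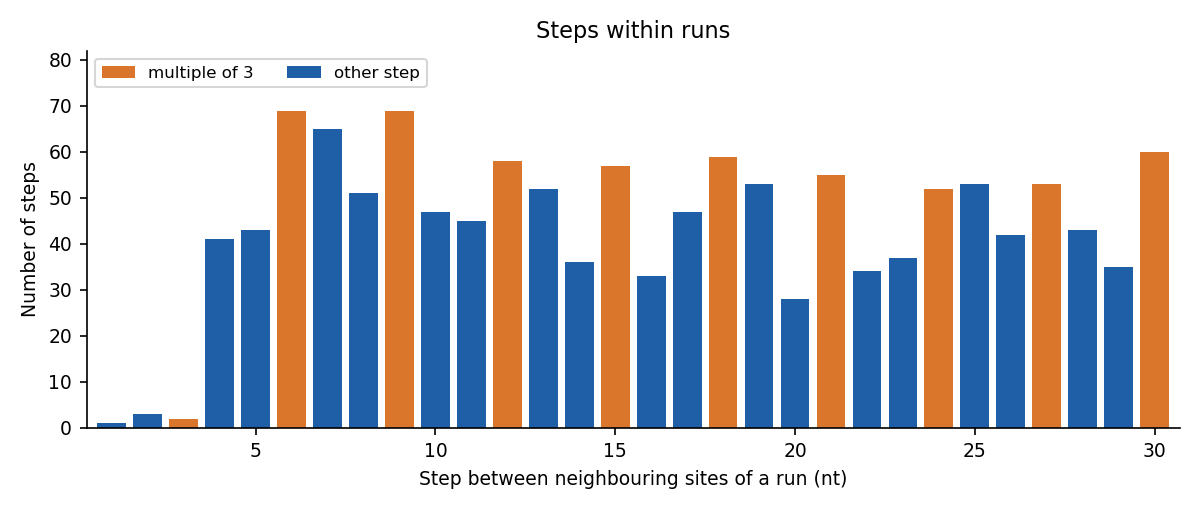
Bars give the number of steps (vertical axis) of each length in nt from 1 to 30 (horizontal axis) between neighbouring sites of the 396 runs, with multiples of 3 in a second colour. Steps of 6 and 9 nt are the most frequent with 69 each, ahead of 7 nt with 65 and 30 nt with 60.

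Over sites of all coverages together, the median level in runs was close to that elsewhere. Run sites had a median level of 47.2% (quartiles 26.9 and 77.4), from 10.1% to 100%, and the other 54387 shared sites had 44.8% (25.8 and 74.0). The difference was 2.42 percentage points, and 1.51 and 2.23 in replicates 1 and 2 alone. It turned to -5.62 when the largest step was set to 20 nt. At least 80% methylation was reached by 386 run sites (22.5%) against 20.1% of other sites, and 246 run sites (14.3%) lay under 20% against 15.2%. Lone sites had a median of 43.0%, pairs 48.8% and triples 51.3%, so the level did not rise steadily with the size of the group.

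Coverage moved with this comparison. The median was 57 and 67 reads at run sites in replicates 1 and 2, and 43 and 50 at other sites. At 15 to 29 reads run sites were lower, at 55.7% against 58.7%. They were higher at 30 to 49 reads (50.05% against 46.0%), at 50 to 99 (44.6% and 37.0%), at 100 to under 200 (42.4% and 32.9%) and at 200 or more (43.1% and 28.4%). Within genes the difference was near 0. In the 367 genes that held both kinds, run sites minus the gene's other sites had a median of 0.10 points (quartiles -10.8 and 13.1), -0.08 and 0.27 in replicates 1 and 2, and was positive in 184 genes and negative in 183. These are descriptions of sites, which are not replicates, and no test was made.

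**Figure D4:**
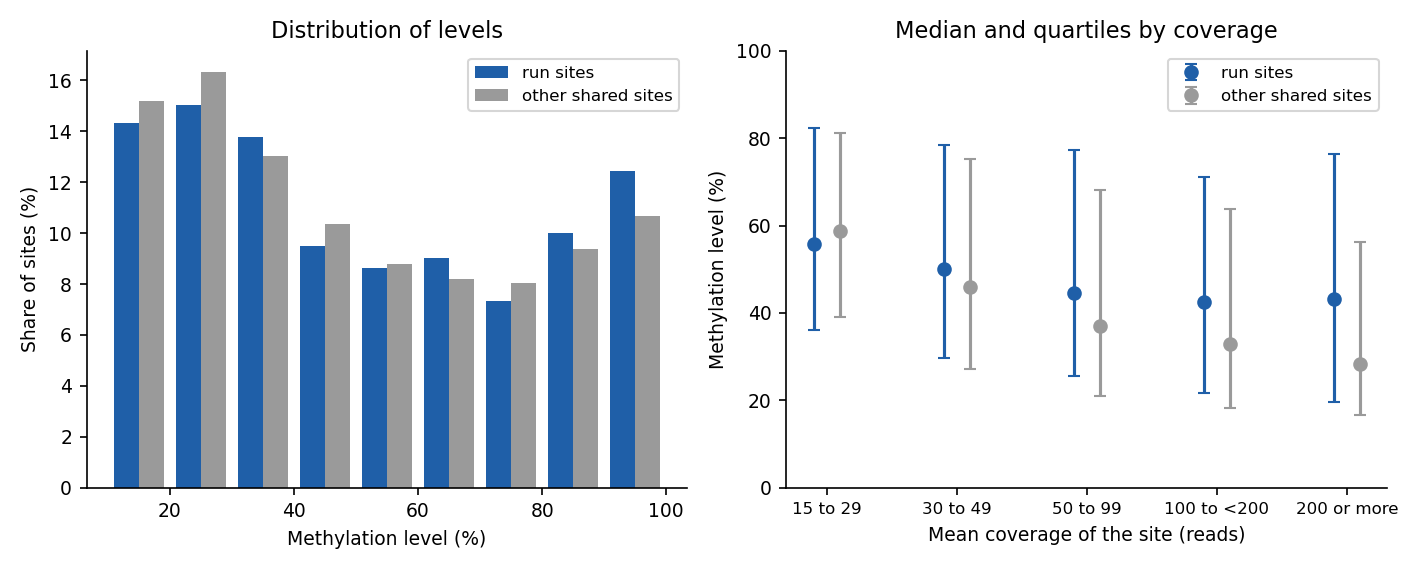
The left plot gives the share of sites in percent (vertical axis) by methylation level in percent, for run sites and other shared sites, and the right plot the median level with quartiles as bars by class of mean coverage in reads. Medians of run sites stay between 42.4% and 55.7% across the classes, while those of other sites go from 58.7% at 15 to 29 reads to 28.4% at 200 or more.

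In runs, sites with a close neighbour had lower levels. The median was 44.1% at 628 run sites whose nearest neighbour lay 1 to 9 nt away, 45.9% at 668 with 10 to 19 nt and 55.7% at 423 with 20 to 30 nt. In pairs and triples the same classes had 48.7%, 50.1% and 49.3%. By mean step of the run, the median of the run means was 44.6% under 10 nt (26 runs), 48.5% from 10 to 15 nt (117), 51.7% from 15 to 20 nt (170) and 54.8% from 20 to 30 nt (83). The tightest runs by mean step were those of CCNT1, PBX2, PBX2P1, LOC728554 and AMOT. In CCNT1, 4 sites within 19 nt had 25.8% and 28.6%, 96.0% and 97.1%, 56.9% and 38.2%, and 13.3% and 13.0% in replicates 1 and 2, and all 3 pairs differed.

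Levels varied widely within most runs. The range from the lowest to the highest site of a run had a median of 58.8 points (quartiles 42.2 and 71.0), and 59.2 and 58.5 in replicates 1 and 2. The SD of sites around their run's mean was 26.3 points, nearly the 27.4 points of all run sites, and the run means themselves had an SD of 14.7. A site at or above 80% occurred together with one under 20% in 92 runs (23.2%). All sites were at or above 50% in 23 runs and under 50% in 37. The highest site was the same in both replicates in 314 runs (79.3%), and the whole order of sites in 178 (44.9%). Deviations of the 1719 sites from their run's mean had an r of 0.957 between replicates, as a description over sites that share libraries. No position in a run stood out: in runs of 4 sites the medians from 5′ to 3′ were 47.6%, 48.5%, 44.7% and 47.2%, and the highest site was at these positions in 72, 81, 68 and 81 runs.

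**Figure D5:**
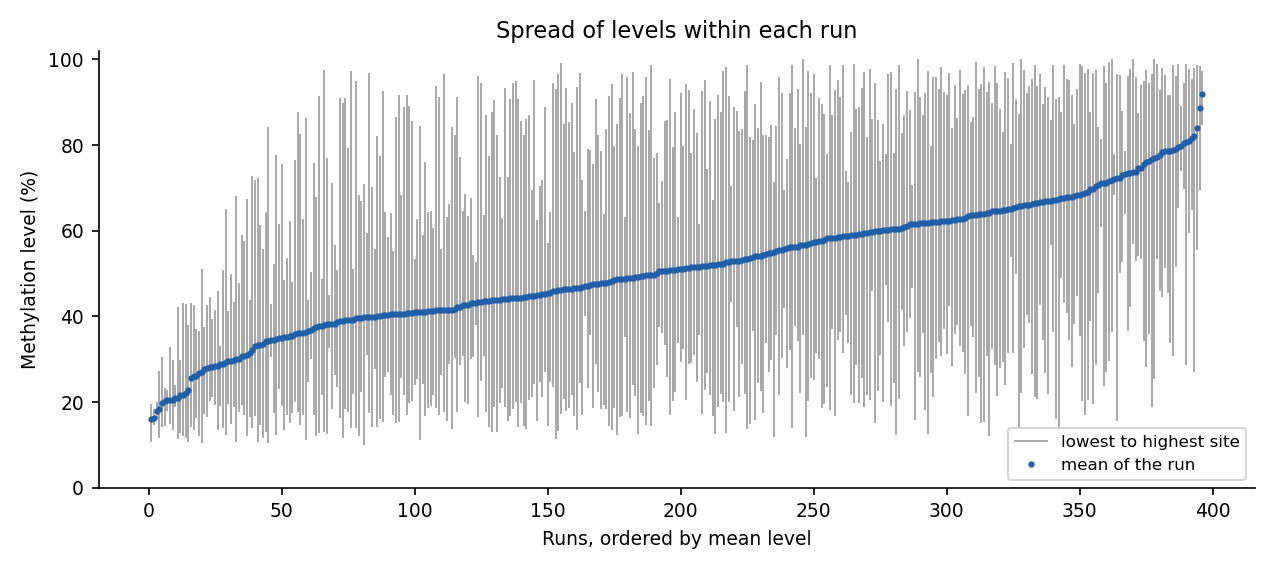
Each grey line is 1 of the 396 runs and reaches from its lowest to its highest site on the vertical axis of methylation level in percent, with the run mean as a point and runs ordered by that mean on the horizontal axis. Means go from 16.1% to 92.0%, and most lines cover a large part of the scale, with a median length of 58.8 points.

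The widest ranges, among runs whose sites all had at least 30 reads, were in ARID1B, TSPAN14, FBXL19, GLCCI1 and IVD. ARID1B, a subunit of the BAF chromatin remodeller, had 6 sites at chromosome 6, 157207346 to 157207431 (plus strand) and a range of 85.5 points. Its levels in replicates 1 and 2 were 15.1% and 23.0%, 14.3% and 11.3%, 97.8% and 98.8%, 19% and 28.8%, 92.5% and 89.8%, and 67.7% and 73.6%. A site near full methylation thus lay between 2 weak ones, 27 nt downstream of the first and 24 nt upstream of the second. In TSPAN14, a tetraspanin, the step from the second to the third site was 7 nt and went from 13.3% and 17.3% to 97.1% and 100%. IVD, an enzyme of leucine breakdown, started at 100% and 97.4% and ended at 16.2% and 12.5% over 71 nt. GLCCI1 had 1 site at 97.5% among 4 sites from 13.1% to 43.3%, and FBXL19, an F-box protein, ran from 12.7% to 97.3%.

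The runs with the narrowest ranges, among those whose sites all had at least 30 reads, were low throughout. LOC728554, a transcribed pseudogene, had the smallest range, with 4 sites from 14.6% to 18.4% (3.82 points). NISCH, which encodes nischarin, had 16.1% to 20.1%, HCFC1, a host cell factor that binds chromatin regulators, 17.9% to 22.7%, and NIT1, an amidase, 18.8% to 24.0%. These are ranges of the mean of both libraries. In replicates 1 and 2 NIT1 ranged from 14.0% to 34.2% and from 13.7% to 25.4%. HCFC1 had 17.3% to 27.6% and 14.8% to 24.6%. NISCH had 12.7% to 20.5% and 18.1% to 21.9%, and LOC728554 13.2% to 19.4% and 13.4% to 17.4%. None of the 3 pairs differed in any of these 4 runs, which had median coverages of 66 to 112 reads, so smaller differences would not have been detectable. RFX5, a regulator of MHC class II genes, had the lowest mean of all runs, 16.1% ± 1.06, with 10.7% to 19.5%, and 1 of its 3 pairs differed. After it came LOC728554 with 16.2% ± 1.53, NISCH with 18.0% ± 1.44, YOD1, a deubiquitinase, with 18.4% ± 1.39 and TBC1D10B, a Rab GTPase activator, with 19.7% ± 1.36. These means lie within a few counting errors of each other. The list minimum of 10% sets a floor under such ranges.

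At the upper end, PNMA1, known as a paraneoplastic antigen, was the 1 run with all sites at or above 80%. Its 4 sites at chromosome 14, 73713759 to 73713814 (minus strand) had 98.3% and 96.2%, 83.7% and 95.8%, 95.3% and 97.4%, and 84.0% and 85.4%, with a mean of 92.0% ± 1.24. SFT2D3 had 83.9% ± 1.92, and RSF1, a chromatin remodelling factor, had 81.7% ± 2.25. RBBP6, a ubiquitin ligase that also acts in mRNA 3′ processing, reached 82.2% ± 0.93 although its first site had only 25.5% and 28.8%, since the other 4 lay between 94.3% and 98.0%.

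Neighbouring sites were compared by Fisher's exact test on A and G counts summed over the libraries, two-sided, with Benjamini-Hochberg adjustment at 0.05 over all 10496 pairs at most 30 nt apart. In runs 922 of 1323 pairs differed (69.7%, Wilson 67.2 to 72.1), against 67.9% over all pairs and 67.6% (66.6 to 68.6) in pairs and triples of sites, so runs lay near the background. The median size of the difference was 25.2 points in runs and 23.7 in pairs and triples. By step, 71.9% of run pairs differed at 4 to 9 nt, 69.0% at 10 to 19 nt and 68.9% at 20 to 30 nt. In each replicate alone and with the same direction 688 pairs (52.0%) differed, against 47.6% over all pairs, and none differed in opposite directions. At least 1 pair differed in 381 runs, every pair in 140 and none in 15. The levels of neighbours in runs had a Spearman correlation of 0.08 over 1323 pairs, a description only. A read can cover both sites of a pair, so their counts are not fully independent.

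The deepest runs gave the firmest levels. RHOB, a small GTPase whose mRNA is short-lived, had 2 runs, of which the run of 4 sites had a mean of 46.8%. The other had 5 sites at chromosome 2, 20448654 to 20448713 (plus strand) with a median of 1232 reads. Levels were 30.4% and 29.1%, 89.5% and 90.2%, 12.3% and 10.9%, 50.8% and 50.5%, and 12.2% and 14.2% in replicates 1 and 2. The high second site stood only 5 nt from the first, and all 4 pairs differed. XIST, the long noncoding RNA of X inactivation, had 3 runs of 4 sites at chromosome X on the minus strand. In the deepest, 73852206 to 73852174, levels were 86.3% and 86.3%, 19.5% and 19.2%, 10.6% and 11.8%, and 28.2% and 28.3%, at a median of 4711 reads. The others, 73851896 to 73851813 and 73826899 to 73826862, had means of 37.5% ± 0.42 and 56.8% ± 0.41, and all 9 pairs of XIST differed. In SLIT2, an axon guidance ligand, 1 of 2 runs was low, at 14.9% to 32.8% over 4 sites and a median of 933 reads. The other run of SLIT2 had a mean of 33.1%.

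Genes with a run had many sites, which the rule sets in part. Their median was 14 shared sites (quartiles 10 and 21) against 4 over all genes. Genes with fewer than 4 sites could not hold a run, and each further site gives more chances for one. The share of genes with a run rose from 51 of 2365 genes with 4 to 7 sites (2.16%) to 86 of 1114 with 8 to 11 (7.72%), 66 of 562 with 12 to 15 (11.7%), 52 of 348 with 16 to 19 (14.9%), 84 of 318 with 20 to 29 (26.4%) and 33 of 106 with 30 or more (31.1%). Many sites did not require a run: the histone methyltransferase genes KMT2D and KMT2A held 81 and 63 shared sites, RNF213 62, SRRM2 58 and SRCAP 56, and none of these had one. Conversely, all shared sites lay in the run in ORC6 (6 sites, a subunit of the origin recognition complex), TROAP (6), TOR3A (5), SYVN1 (4, an endoplasmic reticulum ubiquitin ligase) and TAPT1 (4). In the median gene the run held 30.8% of its sites.

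Of the 372 genes, 351 had 1 run, 18 had 2, and SETD5, TBC1D16 and XIST had 3. Runs of 1 gene could differ. SETD5, a SET-domain protein linked to chromatin, had a run of 5 sites with a mean of 39.8% ± 0.98 at chromosome 3, 9470587 to 9470669 (plus strand). Its runs of 4 and 5 sites at 9475864 to 9475924 and 9476071 to 9476116 had 74.7% ± 0.80 and 63.4% ± 0.96. CUL1, the scaffold of SCF ubiquitin ligases, had 21.0% ± 1.49 in one run of 5 and 64.1% ± 1.42 in the other. DCAF5, a substrate receptor of CUL4 ligases, had 40.9% ± 1.67 in 6 sites and 28.1% ± 2.06 in 4. TBC1D16, a Rab GTPase activator, had 65.6% ± 2.21, 39.5% ± 1.37 and 59.8% ± 2.0. MKI67, the proliferation marker, had means of 66.1% and 27.8% in its 2 runs.

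By gene group, runs were counted among genes with a shared site, beside 372 of 9521 (3.91%) over all genes. Groups were lists of gene symbols, mostly taken by how the symbol starts, so family members with other names were not counted. Runs were held by 8 of 48 histone lysine methyltransferases and demethylases (16.7%): KMT2B, KMT2E, NSD1, NSD2, SETD1A, SETD5, SETD7 and SETDB1. This group had a median of 11 shared sites per gene. Of 84 homeobox, SOX and forkhead genes, 9 had a run (10.7%; median 7.5 sites): FOXK2, FOXM1, FOXO3, HOXC11, HOXC6, HOXD13, IRX3, PBX2 and SOX4. The developmental factor SOX4 had 38.2% and 39.7%, 87.3% and 88.3%, 72.5% and 71.1%, and 82.7% and 77.8% in replicates 1 and 2, and all 3 pairs differed. Of 24 immediate early genes only IER2 and MYC had one (8.33%; median 11 sites). IER2, a nuclear protein induced by growth factors, had 39.5% and 29.7%, 97.1% and 94.5%, 68.0% and 71.4%, and 20.2% and 22.9%, the last 3 sites 6 nt apart. In MYC, the growth-promoting transcription factor, 5 sites within 55 nt had mean levels of 80.8%, 29.2%, 27.4%, 18.4% and 83.7%, high at both ends.

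Among further groups, runs were found in 3 of 32 splicing factors (HNRNPF, SON and SRSF6) and 2 of 18 KLF and SP factors (KLF11 and SP2). They were also found in 2 of 4 SLITRK and protocadherin genes (PCDH10 and SLITRK5) and 3 of 53 Mediator, Integrator and TAF subunits. These subunits were taken by symbols starting MED, INTS or TAF. C7orf26, a synonym of the Integrator gene INTS15, also held a run and was not counted. Of 215 C2H2 zinc finger genes named ZNF, ZBTB or ZSCAN 10 had a run, and of 167 SLC and ABC transporters 6. Of 147 ubiquitin ligases named RNF, TRIM, KLHL, FBXO, FBXL or FBXW 4 had one. The ligases SYVN1 and RBBP6, which also held runs, have other names and were not counted. Of the 19 genes of the m6A machinery only WTAP, the regulatory subunit of the writer complex, had one (5.26%). Its 4 sites lay between 30.5% and 54.4%, and none of the 3 pairs differed. With 15 to 36 reads a site in each library, this test could miss sizeable differences. No run was found in 33 cytosolic ribosomal protein genes and 51 nuclear oxidative phosphorylation genes, both with a median of 1 shared site, nor in 41 DDX and DHX helicases, with a median of 5. The median number of shared sites per gene was 3 in the splicing factors, where SON alone held 83. It was 6 in the ubiquitin ligases, 9 in the m6A machinery and 33 in the SLITRK and protocadherin genes. Whether these small counts follow the number of sites was not tested.

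Some runs shared an exact order of steps. PBX2, a homeobox gene, and PBX2P1, its processed copy on another chromosome, both had steps of 5, 8 and 7 nt. Their mean levels were 46.7%, 21.8%, 64.3% and 29.3% in PBX2 and 57.9%, 24.7%, 70.5% and 27.2% in PBX2P1, in the same order. Reads of such near-identical copies can be assigned to either, so both are uncertain. RTL8A and RTL8B, retrotransposon-derived paralogs on chromosome X, shared steps of 22, 26 and 13 nt but not levels. RTL8A had 84.5% and 84.3%, 92.7% and 93.1%, 29.9% and 23.4%, and 47.4% and 48.5% in replicates 1 and 2. RTL8B had 78.8% and 78.6%, 17.9% and 16.7%, 18.8% and 17.9%, and 94.6% and 90.6%. The second site was thus high in RTL8A and low in RTL8B, and their reads are open to the same uncertainty. CENPF and HOXC11, and IER2 and HILPDA, are not copies of each other but also shared their 3 steps.

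Most runs lay in protein-coding genes, 374 of 396, with 94.4% of run sites against 94.5% of other shared sites. Long noncoding RNAs held 15 runs in 12 of their 260 genes, beside 372 of 9521 (3.91%) over all genes. They had 3.84% of run sites against 1.98% of other sites. Of their 66 run sites, XIST held 12, LINC02693 10 and SLC9A3-AS1 7. Pseudogenes held 5 runs in 681 genes, with 1.28% against 2.92%. Within protein-coding genes 44.8% of run sites lay in the last 10% of the gene, against 43.9% of other sites. The last 1 kb held 17.4% and 21.7%, and the first 10% of the gene held 6.98% and 9.77%. These positions follow the genome and include introns.

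No difference between the replicates was called at a run site. Fisher's exact test of replicate 1 against replicate 2, adjusted over all 60462 shared sites, called 0 of 1719 run sites, against 0.0% over all. At an unadjusted p of 0.05, 59 run sites (3.43%) passed, against 3.06% over all. A chi-square test with dispersion also called 0, and 95 run sites (5.53%) passed unadjusted. Its statistic was scaled by its mean over all shared sites, and the share passing over all sites is not given here. The 95 therefore say nothing particular about runs. The replicates differed by a median of 4.36 points at run sites and 4.90 at other sites. Of sites listed in only 1 library, 30 lay inside 30 of the runs, 15 from each replicate, with median levels of 21.1% and 17.1%. Among markers of HEK293T cells, NEFL and NEFM had 6 shared sites each, VIM 3, PAX2 1 and NES none, and 7 markers of blood, liver, endothelium, fibroblasts and pancreas had no listed site; a listing depends on methylation as well as on expression.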

How the data were processed

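The 2 GLORI libraries came as 1 list of called sites each. Per the file headers, each line gives position, strand, gene name, the count of A or G reads, the count of A reads, their ratio (a fraction, the level), a conversion fraction, a gene coverage score and the p-value, raw and adjusted. The authors deposited only sites past their limits. Per the submitters' processing notes, reads were handled with STAR, Bowtie, SAMtools and Trim Galore 0.6.6 on GRCh38. No source used here names the site caller or gene annotation. The deposited p-value, conversion fraction and score were not used here.

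Sites shared by both lists were chained by gene and strand. Differences between replicates and between neighbouring sites were tested with Fisher's exact test on counts (scipy 1.17.1, Python 3.11.15), adjusted over the whole table; all else is description. The replicate test and the chaining of sites were checked on simulated data. Intervals are 95% Wilson intervals and cover counting error only, since reads may be copies of 1 molecule. Gene kinds and ends came from RefSeq's GRCh38.p14 annotation, which matched 370 of the 372 genes, 5 of them by synonym. Sequence context, codons, exons and UTRs were planned but not analysed here.

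The members, gene lists and rules were chosen with earlier results of these data known. Named runs were those with most sites, the genes with most runs, the smallest mean steps, the highest and lowest mean levels, the widest and narrowest ranges (sites of at least 30 reads) and the highest coverage; others were named through the lists or after their values were seen. Alternatives changed the largest step, fewest sites, coverage, level, strand and library. Some runs that the rule takes are not reported here.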

Additional observations from a re-analysis of the deposited data

Results flagged for a closer look

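Sites without a gene name were outside the rule, and they also formed runs. By the same spacing there were 12 such runs, which held 49 of 4356 shared unnamed sites, the longest with 5 sites. Their median level was 45.7%, against 41.8% at other unnamed sites, at a median coverage of 39 and 51 reads in replicates 1 and 2.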

How the results depend on the processing

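The number of runs followed the rule. From 396 it went to 120 with a largest step of 20 nt and 1214 with 50 nt, to 1754 with at least 3 sites and 94 with at least 5, to 258 with at least 30 reads a site and 210 with levels of at least 20%. With 1 library left out it was 559 to 679, and 894 with sites of either list (added after seeing the data). The median level of run sites minus that of other sites, 2.42 points, reversed to -5.62 at 20 nt. It was 6.01 at 50 nt, 5.79 with at least 3 sites, 6.85 with at least 30 reads and 3.75 to 4.23 with 1 library left out, and 1.91 without SON (added afterwards). Within genes (added afterwards) it was -3.80 at 20 nt, positive in 50 of 117 genes. The cause was not tested. The share of neighbouring pairs that differed stayed between 57.9% and 75% in these settings; 52.0% differed in each library alone. Adjusted replicate calls at run sites were 0 in all of the settings run, with 16 to 199 sites passing unadjusted. Of the 45 runs named by rule, 17 were kept at 20 nt, 39 with at least 30 reads and 45 in either library alone. No paired analysis was possible because there is only 1 group. Depth limits weak sites: at 15 reads, 5 A reads are needed for listing.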
